A study of Mus musculus with 16 samples.

Results

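Oxidative phosphorylation subunits are the proteins that build the respiratory chain and the ATP synthase of the inner mitochondrial membrane. They were taken here as the protein-coding genes of the count table whose GENCODE symbol belongs to the Nduf, Sdh, Uqcr, Cyc1, Cycs, Cox4 to Cox8, Atp5 or mt- families. The rule found 96 genes among 29730. Of these, 86 are encoded in the nucleus (38 of complex I, 4 of complex II, 9 of complex III, 17 of complex IV, 17 of complex V and Cycs) and 10 in mitochondrial DNA (5 of complex I, 1 of complex III, 3 of complex IV and 1 of complex V). In all, 92 of the 96 passed the filter on low counts and were tested. mt-Co2, mt-Co3, mt-Atp6 and Cox7b2 did not pass, with 10, 10, 17 and 10 counts over all libraries, while Atp5g2 with 211 counts and Cox6b2 with 223 counts were the lowest that passed. mt-Atp8, mt-Nd3, mt-Nd4l and Cox8c had no row in the count table and were not analysed here.

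RNA was sequenced from a leg muscle, the tibialis anterior, in 16 mice, all male, 7 weeks old and labelled C57BL/6N. Each of the 4 groups held 4 mice. WT_PBS were wild-type mice that received phosphate-buffered saline, and WT_ASO were wild-type mice that received the oligonucleotide ASO1. KO_PBS and KO_ASO were Bin1mck-/- mice that received saline and ASO1, respectively. ASO1 is an antisense oligonucleotide, and the title of the series names Dnm2 as what it lowers. For the promoter behind the name mck, the deleted part of Bin1, and the dose and schedule of ASO1, the sources used here give no account.

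Complex I (NADH dehydrogenase) and complex II (succinate dehydrogenase) pass electrons to ubiquinone, complex III passes them to cytochrome c, and complex IV (cytochrome c oxidase) passes them to oxygen. Complex V, the ATP synthase, uses the proton gradient that complexes I, III and IV build. Most subunits are nuclear genes whose proteins are imported, and the mitochondrial genome supplies core subunits of every complex except complex II. In muscle, several complex IV subunits have a form specific to contractile tissue beside a form found in most tissues.

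Libraries held 27591900 to 40862854 counts. The mitochondrially encoded members took 5.57 to 12.1% of the counts of a library and the nuclear members 2.37 to 3.32%. Bin1 measured 463 to 620 CPM (counts divided by the scaled library size) in the wild-type mice and 31.7 to 47.7 CPM in the knockout mice. Dnm2 measured 50.2 to 67.7 CPM in the saline groups and 20.7 to 31.1 CPM in the ASO1 groups. In KO_PBS vs WT_PBS, 12.6% of all genes tested passed the test (5.12% lower and 7.43% higher), and in KO_ASO vs KO_PBS 3.64% passed. Of the 9 fast fibre markers, 5 were lower in KO_PBS than in WT_PBS and none higher. Their summed level was 106904 to 134956 CPM in KO_PBS and 154043 to 186519 CPM in WT_PBS. Of 9 markers of oxidative and slow fibres, 2 (Tnni1 and Atp2a2) were higher in KO_PBS and none lower, and their summed levels overlapped, with 5406.7 to 13489.1 CPM in KO_PBS and 3420.9 to 10062.7 CPM in WT_PBS. Of 9 macrophage markers, 8 were higher in KO_PBS than in WT_PBS, with a summed level of 119.5 to 358.7 CPM against 46.8 to 75.5 CPM, and 6 were lower in KO_ASO than in KO_PBS. Of 5 fibroblast markers, 2 (Pdgfra and Dcn) were higher in KO_PBS than in WT_PBS, with a summed level of 1001.3 to 1727.4 CPM against 744.9 to 1013.1 CPM, and Dcn was lower in KO_ASO than in KO_PBS. No endothelial, adipocyte, red blood cell or heart muscle marker passed in these comparisons by edgeR. The part of these cell types in the members' results was not tested. In bulk muscle RNA, a change in cell or fibre number and a change per cell cannot be told apart.

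One library stood apart for the nuclear members. In KO_PBS replicate 4 the median nuclear member lay 0.305 below its mean over all libraries on the log2 scale. The other 15 libraries lay between -0.173 and 0.191. These deviations also contain differences between the groups. The summed level of the 86 nuclear members was 23012 CPM in KO_PBS replicate 4 and 28921 to 30688 CPM in the other KO_PBS libraries. For the main medians and sums that rest on KO_PBS, the value without it is therefore given too.

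The messages of mt-Co2, mt-Co3 and mt-Atp6 were almost uncounted in these libraries. mt-Co2 and mt-Co3 encode core subunits of complex IV and mt-Atp6 a core subunit of complex V. No library held more than 2, 3 and 8 counts of them, respectively. mt-Co1, which encodes the catalytic core of complex IV and lies beside mt-Co2 in the mitochondrial genome, had at least 487215 counts in each library. Per kilobase of exon, the mean over 16 samples was 15354 CPM for mt-Co1, 0.0268 CPM for mt-Co2, 0.0222 CPM for mt-Co3 and 0.0450 CPM for mt-Atp6. The first 90 bases of each of the 3 transcripts (GENCODE M21, GRCm38), shown because the same letters occur a second time in the genome, are printed in full.
mt-Co2: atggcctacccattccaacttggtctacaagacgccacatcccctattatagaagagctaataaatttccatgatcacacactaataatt
mt-Co3: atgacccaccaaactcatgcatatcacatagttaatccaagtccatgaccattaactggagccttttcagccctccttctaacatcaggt
mt-Atp6: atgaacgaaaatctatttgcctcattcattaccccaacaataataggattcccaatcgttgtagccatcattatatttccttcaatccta

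These letters are identical in 3 pseudogenes that lie together on the minus strand of chromosome 1. Gm28661 (24614885 to 24615565) matched 681 of the 684 bases of mt-Co2, Gm28437 (24613189 to 24613971) matched 783 of the 784 bases of mt-Co3 and Gm10925 (24613974 to 24614651) matched 678 of the 681 bases of mt-Atp6, all with 0 mismatches. The pseudogenes themselves had 258, 21 and 81 counts over all libraries. The copy of mt-Co1, Gm29216 (24615706 to 24616197), covered 31.3% of the transcript with 1 mismatch. That mismatch is in capitals in the stretch that follows, bases 1063 to 1152 of mt-Co1 with the matching stretch of its copy.
mt-Co1: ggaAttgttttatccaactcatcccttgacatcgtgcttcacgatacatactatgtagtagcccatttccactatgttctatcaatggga
Gm29216: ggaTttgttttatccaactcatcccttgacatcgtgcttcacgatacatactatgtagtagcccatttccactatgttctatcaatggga

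mt-Nd4, a core subunit of complex I, matched Gm28439 over 63.6% of its length with 0 mismatches, and still had 5397193 counts over all libraries. The sources used here do not say how reads with several matches were counted, so the part of the copies in the low counts was not tested. Over the whole list, 23 of 96 members had a copy elsewhere at 98% identity or more over at least 100 bases, and in 17 at least 50% of a transcript lay in such copies. Atp5g2, a c-ring subunit of the ATP synthase, lay wholly in copies at 0.384 CPM, Atp5h had 99.8% in copies at 103.8 CPM, and Ndufs3 87.6% at 72.3 CPM. Copies were thus present at high and at low levels. Their members' values are uncertain to the extent that reads were split or dropped.

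**Figure D1:**
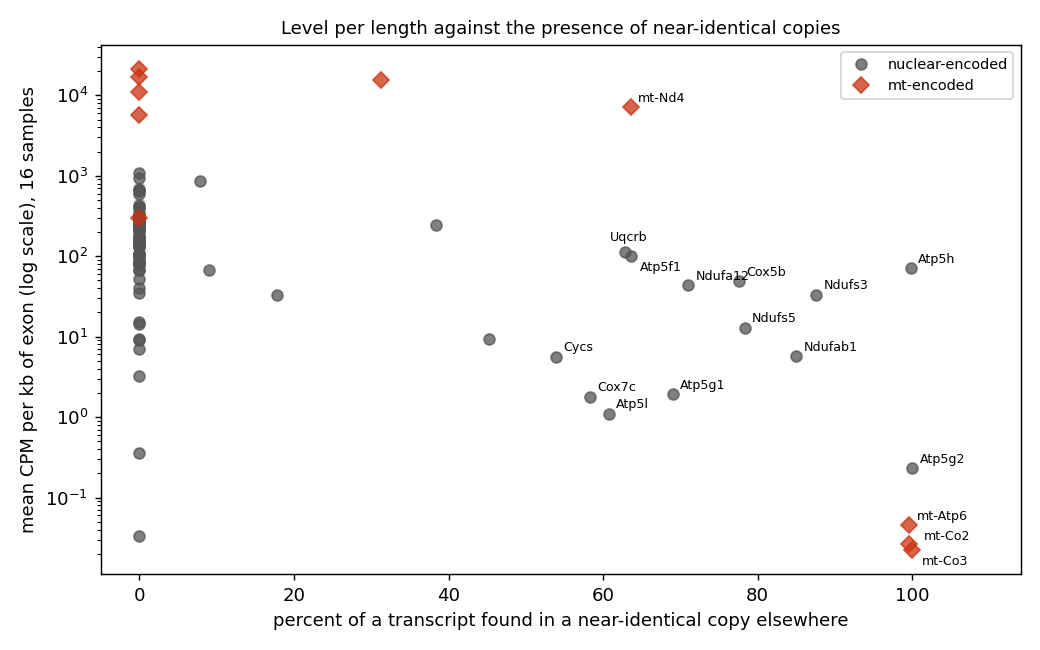
Mean CPM per kilobase of exon over 16 samples (log axis) against the percent of a transcript found in a near-identical copy, 1 point per member (circles nuclear-encoded, diamonds mt-encoded, names given from 50% on). mt-Co2, mt-Co3 and mt-Atp6 sit under 0.1 CPM per kilobase at the right edge, while mt-Nd4 at 63.6% stays at 7087 CPM per kilobase.

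The remaining mitochondrial messages were the most abundant members. Per kilobase of exon, mt-Cytb (cytochrome b of complex III) led with 21421 CPM, followed by mt-Nd1 with 16753.5 CPM and mt-Co1, and then mt-Nd2 with 11099 CPM. mt-Nd6, the complex I subunit read from the other strand of the mitochondrial DNA, had 297.6 CPM per kilobase, within the range of nuclear members. Among these, Atp5a1, the alpha subunit of the ATP synthase, was highest with 1085 CPM per kilobase, followed by Cox6a2 with 931.7 CPM, Atp5b, the catalytic beta subunit, with 867.3 CPM, and Cox7a1 with 679.0 CPM. Cycs, cytochrome c, had 5.63 CPM per kilobase, and 53.9% of its transcript lay in copies.

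The muscle forms of complex IV exceeded the forms of other tissues, by margins that differed between the pairs. Per length in WT_PBS, Cox6a2 was 68.0 ± 21 times Cox6a1 (SD, n = 4) and Cox8b was 58.4 ± 23.4 times Cox8a (SD, n = 4). Cox7a1 was 3.76 ± 0.310 times Cox7a2 (SD, n = 4), a smaller gap, and 2.40 times when the mean transcript length replaced merged exons. Cox4i1, the common form, was 193.3 ± 34.3 times Cox4i2 (SD, n = 4), the form known from lung (460.3 times with the mean transcript length), and Cox6b1 was 2209 ± 368.4 times Cox6b2 (SD, n = 4), the form known from testis. For complex I, Ndufa4 was 35.0 ± 2.2 times Ndufa4l2 (SD, n = 4), a relative known to be induced by low oxygen, or 53.5 times with the mean transcript length. Ndufa4 is now counted with complex IV by many authors, but its symbol places it with complex I here. In KO_PBS, Cox6a2 over Cox6a1 was 49.0 ± 9.08 (SD, n = 4) and Cox8b over Cox8a was 36.4 ± 9.71 (SD, n = 4), and both ranges overlapped those of WT_PBS. Cox6b1 over Cox6b2 was 948.7 to 1619.3 in KO_PBS and 1861.4 to 2688.9 in WT_PBS, without overlap, where Cox6b2 has few counts.

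The effect of the genotype was read from KO_PBS vs WT_PBS. Sdha, the flavoprotein subunit of succinate dehydrogenase, and Ndufb4, an accessory subunit of complex I, were lower in KO_PBS, and no member was higher. These 2 of 92 members (2.17%) stand beside 12.6% of all 14960 genes tested that were differentially expressed genes (DEGs) in this comparison by edgeR at an adjusted P value under 0.05 (5.12% lower, 7.43% higher). The median log2 fold change (log2FC) was -0.02 over the 85 nuclear members tested, -0.19 over the 7 mitochondrial members and -0.01 over all genes. With library totals only in place of TMM these medians were 0.13, -0.04 and 0.14. The median size of a log2FC, regardless of sign, was 0.0905 for the members and 0.2034 for all genes. For 87 of 92 members the 95% interval of the change lay within 2-fold in both directions, and for 70 it lay within 0.5 on the log2 scale.

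Sdha (ENSMUSG00000021577, chromosome 13, 74322254 to 74350280, minus strand, GRCm38) measured 1362, 1304, 1387 and 1406 CPM in the 4 WT_PBS samples and 1130, 1208, 1208 and 1032 CPM in the 4 KO_PBS samples. All KO_PBS samples lay below all WT_PBS samples, with replicate 4 the lowest. The log2FC was -0.25 (SE 0.08, edgeR adjusted P = 0.0469). Without KO_PBS replicate 4 it was -0.20 and did not pass (edgeR adjusted P = 0.147). In KO_ASO, Sdha measured 1289, 1238, 1193 and 1278 CPM, overlapping KO_PBS and still below every WT_PBS sample. The differences of KO_ASO from KO_PBS (log2FC 0.13, SE 0.08, edgeR adjusted P = 0.452) and from WT_PBS (log2FC -0.13, SE 0.08, edgeR adjusted P = 0.733) did not pass. WT_ASO measured 1409, 1279, 1270 and 1484 CPM, overlapping WT_PBS. The groups of 4 failed to overlap for 3 members in KO_PBS vs WT_PBS, against 20.4% of all genes, and for Sdha and Ndufb4 in KO_ASO vs WT_PBS, against 5.39% of all genes.

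Ndufb4 (ENSMUSG00000022820, chromosome 16, 37647170 to 37654453, minus strand) measured 19.0, 19.0, 19.7 and 19.1 CPM in WT_PBS and 15.6, 18.4, 14.9 and 13.3 CPM in KO_PBS. KO_PBS replicate 2 came within 1 CPM of the wild-type samples, and no KO_PBS sample reached them. The log2FC was -0.30 (SE 0.10, edgeR adjusted P = 0.0491), and -0.23 without KO_PBS replicate 4 (edgeR adjusted P = 0.147). KO_ASO measured 17.9, 17.2, 15.3 and 18.8 CPM, and WT_ASO 19.1, 20.6, 19.4 and 22.9 CPM. All KO_ASO samples lay below all wild-type samples of both treatments. A copy held 45.2% of a Ndufb4 transcript, but had 0.0 counts on average.

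Both calls lay close to the threshold and depended on the samples in the fit. With each of the 16 samples left out in turn, Sdha passed in 4 fits and Ndufb4 in 3, and their log2FC ran from -0.29 to -0.20 and from -0.39 to -0.23. Sdha passed only without KO_ASO replicate 4 or WT_ASO replicate 2, 3 or 4, and Ndufb4 only without KO_PBS replicate 2, KO_ASO replicate 4 or WT_ASO replicate 4. Neither passed when library sizes were set by totals only, when all genes were kept, when only the compared groups entered the fit or when the scaling left out the members. With library totals only, the log2FC was -0.10 for Sdha and -0.16 for Ndufb4, where the median of all genes was 0.14, and with the other 3 settings it was -0.25 to -0.24 for Sdha and -0.30 to -0.29 for Ndufb4. With the replicate number added to the fit as a block, Sdha did not pass (log2FC -0.25, edgeR adjusted P = 0.0562) and Ndufb4 did. With limma-voom, Ndufb4 did not pass (log2FC -0.25, adjusted P = 0.0644) and Sdha did.

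**Figure D2:**
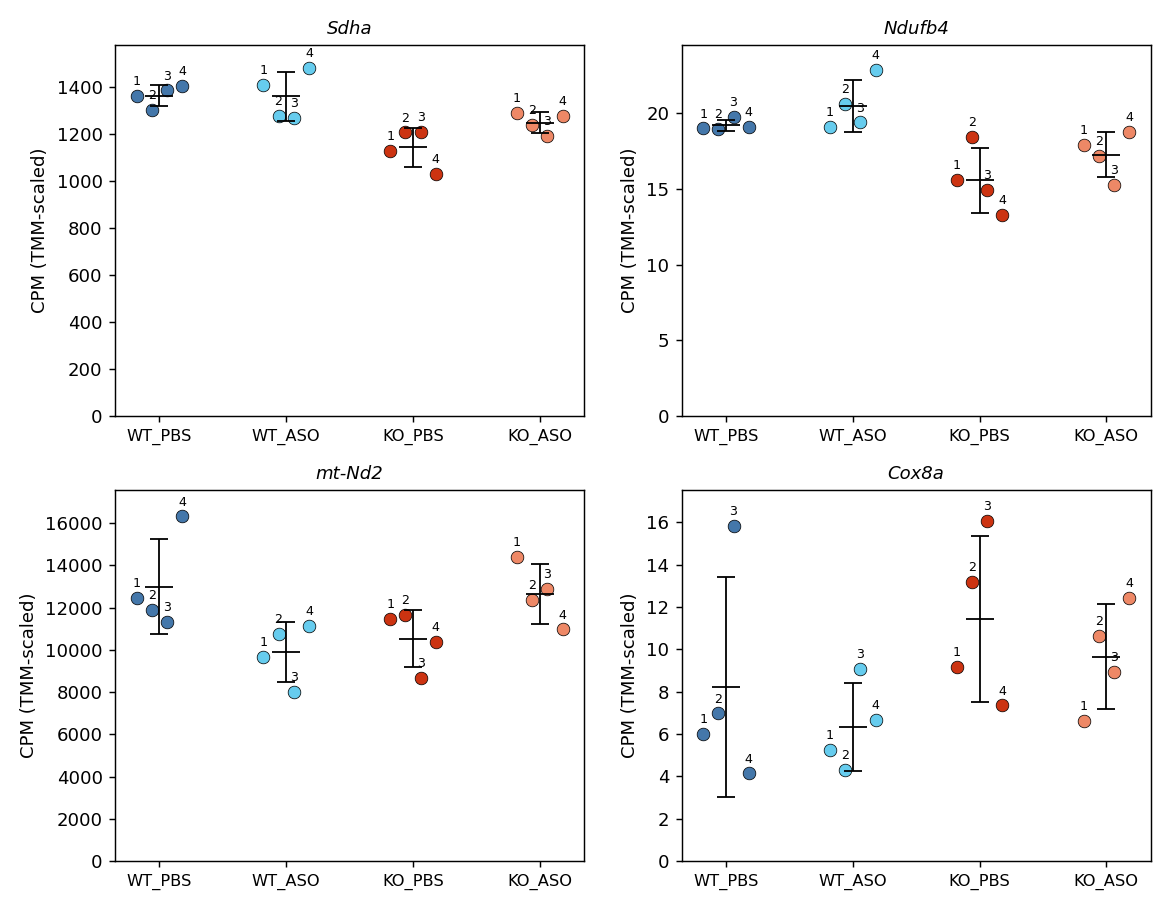
CPM of Sdha, Ndufb4, mt-Nd2 and Cox8a in each sample (numbers are replicates), with the group mean and SD (n = 4). The KO_PBS points of Sdha and Ndufb4 lie below all WT_PBS points, whereas those of Cox8a spread from 7.35 to 16.04 CPM and overlap WT_PBS.

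The promoters of both genes are shown because they are the members that passed the test, with every GCGCNNGCGC in capitals, a pattern known from sites of the regulator NRF1 that reads the same on both strands. The stretches come from RefSeq (GRCm38), end before the first coding transcript start in GENCODE, and lie at chr13:74350281-74350490 (minus strand) for Sdha and chr16:37654454-37654618 (minus strand) for Ndufb4.
Sdha: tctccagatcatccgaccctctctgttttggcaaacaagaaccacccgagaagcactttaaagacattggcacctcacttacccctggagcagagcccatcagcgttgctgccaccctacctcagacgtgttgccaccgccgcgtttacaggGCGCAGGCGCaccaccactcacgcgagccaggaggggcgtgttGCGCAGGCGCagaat
Ndufb4: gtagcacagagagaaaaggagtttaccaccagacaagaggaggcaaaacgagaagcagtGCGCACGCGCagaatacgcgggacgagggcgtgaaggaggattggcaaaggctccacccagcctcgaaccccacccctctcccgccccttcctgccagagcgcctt

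Of the 68 members with a promoter entry, 19 (27.9%) held the pattern in the 300 bases around their start, as did 1891 of 27025 genes (7.00%). Sdha and Ndufb4 each held it 3 times in that window. A match describes the sequence and is no evidence of binding.

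The other 3 subunits of complex II did not follow Sdha past the test. Sdhb, the iron-sulfur subunit, had a log2FC of 0.05 (SE 0.15), and the membrane anchors Sdhc and Sdhd had 0.03 (SE 0.11) and -0.15 (SE 0.12). Their adjusted P values by edgeR were 0.860, 0.890 and 0.435. The 4 subunits together reached 2586 ± 183.9 CPM in WT_PBS and 2352 ± 255.0 CPM in KO_PBS (SD, n = 4 each), and KO_PBS stood at 91.0% ± 11.8 of WT_PBS (SD of the ratio). Without Sdha, the most abundant of them, the sum in KO_PBS was 98.9% of WT_PBS.

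In complex I, 23 of the 38 nuclear subunits had a negative and 15 a positive log2FC, with a median of -0.04. Without KO_PBS replicate 4 the balance turned, with 12 negative and 26 positive and a median of 0.06. Ndufv2, a core subunit of the NADH-binding arm, was at -0.16 (SE 0.10, edgeR adjusted P = 0.346), Ndufs1, the large iron-sulfur subunit of the same arm, at -0.19 (SE 0.09, edgeR adjusted P = 0.195), and Ndufb3 at 0.24 (SE 0.15, edgeR adjusted P = 0.317). In complex III, Uqcrc1, a core protein, was at -0.18 (SE 0.12, edgeR adjusted P = 0.386) and Uqcrq at 0.20 (SE 0.21, edgeR adjusted P = 0.583). Cycs was at -0.13 (SE 0.28, edgeR adjusted P = 0.804). None of these differences passed the test.

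Complex IV and complex V held the largest positive changes. Cox6b2 measured 0.409, 0.224, 0.389 and 0.276 CPM in WT_PBS and 0.551, 0.623, 0.488 and 0.641 CPM in KO_PBS, without overlap. Its log2FC was 0.81 (SE 0.32), which did not pass with edgeR (adjusted P = 0.114) and passed with limma-voom (adjusted P = 0.0456). KO_ASO measured 0.272, 0.160, 0.346 and 0.453 CPM, again without overlap with KO_PBS (edgeR log2FC -0.91, SE 0.33, adjusted P = 0.145). These levels rest on 223 counts over all libraries. Atp5k, the e subunit of the ATP synthase, averaged 163.8 ± 34.7 CPM over WT_PBS and 208.4 ± 29.8 CPM over KO_PBS (SD, n = 4 each). Its log2FC, 0.35 (SE 0.15), missed the threshold (edgeR adjusted P = 0.145). It passed without WT_PBS replicate 1 (log2FC 0.49, edgeR adjusted P = 0.0442) and with limma-voom (adjusted P = 0.0319). Its level was 206.0 ± 10.6 CPM in KO_ASO (SD, n = 4).

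Cox6a1 and Cox8a, the forms found outside contractile tissue, had log2FC of 0.34 (SE 0.28) and 0.47 (SE 0.37). WT_PBS replicate 3 set part of this spread. Cox6a1 measured 17.6 CPM there and 7.22 to 8.02 CPM in the other WT_PBS samples. Without that replicate the log2FC of Cox6a1 was 0.75 and passed (edgeR adjusted P = 0.0401). The muscle forms Cox6a2 (-0.02, SE 0.13), Cox7a1 (0.07, SE 0.14) and Cox8b (-0.04, SE 0.13) had log2FC near 0 with all samples. Without KO_PBS replicate 4, 15 of the 16 nuclear complex IV subunits tested had a positive log2FC, with a median of 0.13. With all samples these values were 9 and 0.05. Atp5a1 was at -0.17 (SE 0.12), Atp5c1, the gamma subunit, at -0.12 (SE 0.10) and Cox4i1 at -0.15 (SE 0.12), and none of these passed.

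**Figure D3:**
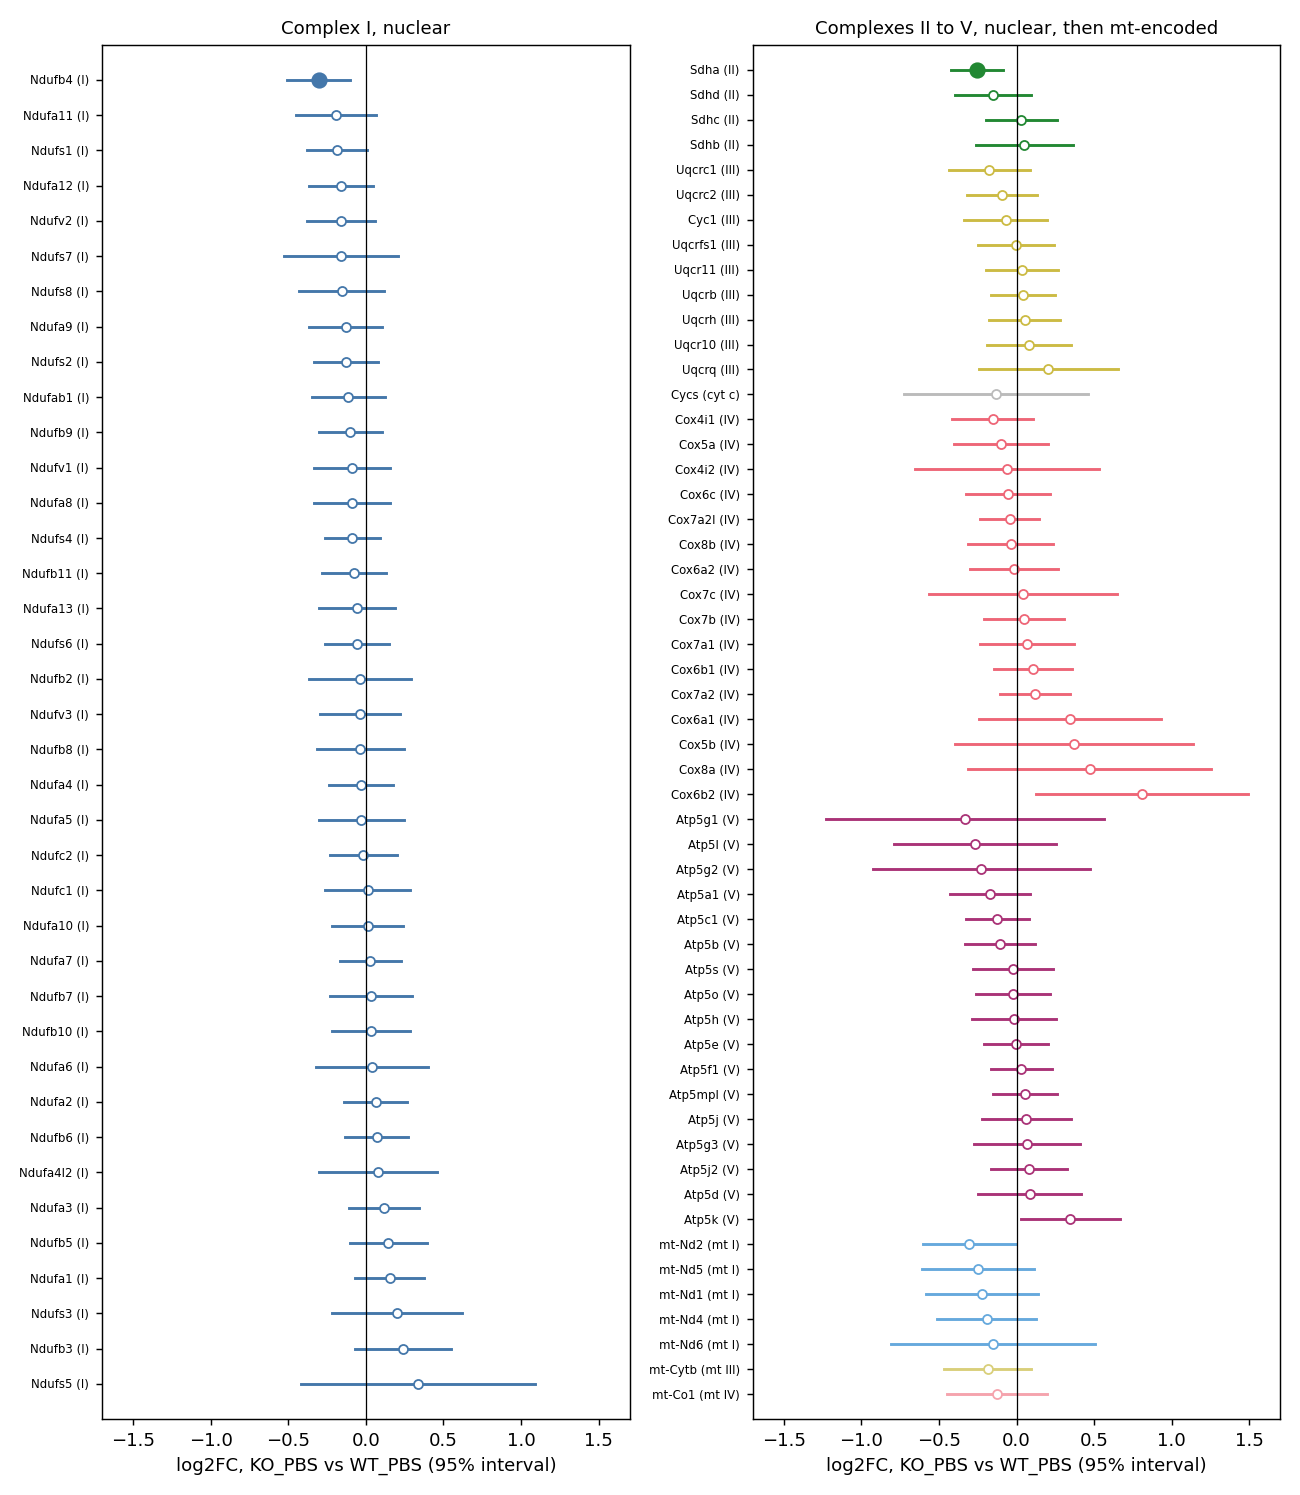
log2FC of each of the 92 members tested between KO_PBS and WT_PBS (n = 4 each) with its 95% interval, grouped by complex and genome. Filled points are Ndufb4 and Sdha, the DEGs, and the 7 mt-encoded members at the bottom right all lie left of 0.

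The sums by complex moved less than their spread. In KO_PBS the nuclear subunits summed to 96.0% ± 16.1 of WT_PBS for complex I, 97.0% ± 17.4 for complex III, 98.9% ± 19.8 for complex IV and 94.7% ± 16.3 for complex V (SD of the ratio, n = 4 each). Without KO_PBS replicate 4 these sums lay above WT_PBS, at 101.7% for complex I, 103.6% for complex III, 105.6% for complex IV and 100.5% for complex V, while complex II was at 95.8%. With library totals only the same sums were 106.3, 107.4, 109.5 and 104.8%, and complex II was at 100.8%. On that scale the median log2FC of all genes was 0.14. Over all 86 nuclear members the sum was 29589 ± 3317 CPM in WT_PBS, 29462 ± 2674 CPM in WT_ASO, 28273 ± 3595 CPM in KO_PBS and 29340 ± 1228 CPM in KO_ASO (SD, n = 4 each). KO_PBS was at 95.6% ± 16.2 of WT_PBS, at 101.5% without KO_PBS replicate 4 and at 105.8% with library totals only. The median log2FC of the nuclear members turned from -0.02 to 0.08 without KO_PBS replicate 4, and to 0.06 without WT_PBS replicate 3.

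The mitochondrial messages followed another order of groups. Their sum was 104313 ± 13824 CPM in WT_PBS, 83561 ± 14470 CPM in WT_ASO, 90895 ± 11194 CPM in KO_PBS and 105265 ± 12545 CPM in KO_ASO (SD, n = 4 each). By sample it was 103059, 94471, 95486 and 124237 CPM in WT_PBS and 88109, 87881, 62552 and 95702 CPM in WT_ASO. It was 102149, 98451, 78725 and 84257 CPM in KO_PBS and 122452, 101851, 104305 and 92453 CPM in KO_ASO. Each pair of groups overlapped, and WT_ASO replicate 3 was the lowest of the 16 samples. KO_PBS stood at 87.1% ± 15.8 of WT_PBS, WT_ASO at 80.1% ± 17.5 of WT_PBS and KO_ASO at 115.8% ± 19.8 of KO_PBS (SD of the ratio, n = 4 each). Without KO_PBS replicate 4, KO_PBS stood at 89.3% of WT_PBS and KO_ASO at 113.1% of KO_PBS. With library totals only the 3 values were 96.5, 77.8 and 108.3%.

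**Figure D4:**
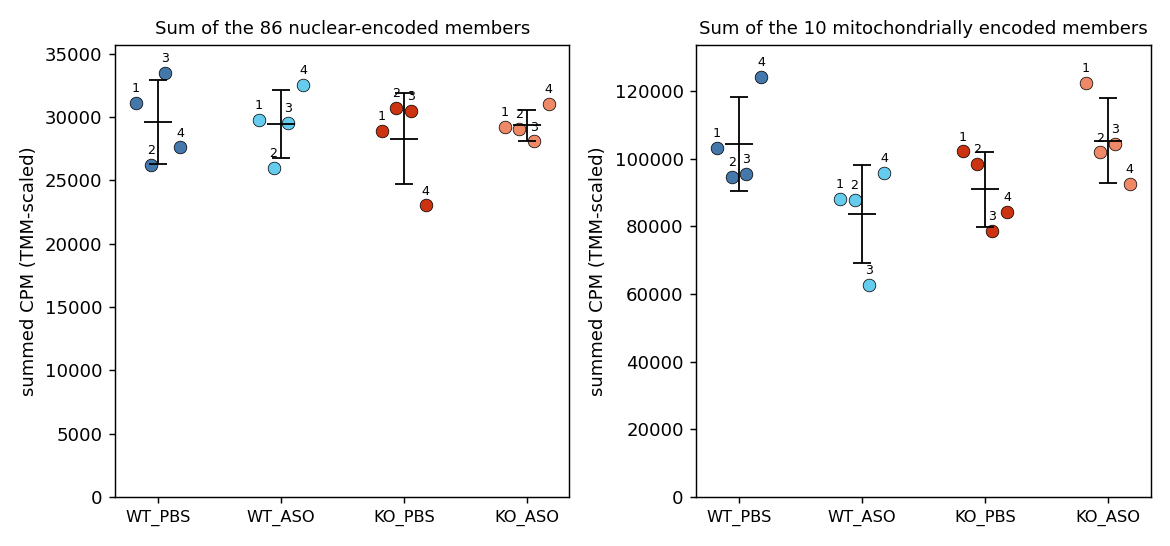
Summed CPM of the nuclear (left) and the mitochondrially encoded members (right) in each sample, with the group mean and SD (n = 4) and replicate numbers. KO_PBS replicate 4 is the lowest nuclear sum (23012 CPM) and WT_ASO replicate 3 the lowest mitochondrial sum (62552 CPM).

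In KO_PBS vs WT_PBS all 7 mitochondrial members tested had a negative log2FC, from -0.30 for mt-Nd2 to -0.13 for mt-Co1, and none passed. mt-Co1 turned to 0.02 with library totals only, and mt-Nd6 to 0.07 without KO_PBS replicate 3. mt-Nd2, a core subunit of the membrane arm of complex I, measured 12459, 11898, 11323 and 16327 CPM in WT_PBS and 11461, 11637, 8666 and 10363 CPM in KO_PBS. The groups overlapped, and its adjusted P value by edgeR was 0.179 (SE 0.14). The median over the 7 members, -0.19 with all samples, was -0.09 without WT_PBS replicate 4 and -0.15 without KO_PBS replicate 4.

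The effect of ASO1 in the knockout was read from KO_ASO vs KO_PBS. None of the 92 members passed, beside 3.64% of all genes, and 1 member (Cox6b2, which also had the only groups that did not overlap, against 10.4% of all genes) had an unadjusted P value under 0.05 by edgeR, as did 17.7% of all genes. With limma-voom 1 member, Cox6b2, passed. The median log2FC was 0.03 over the nuclear and 0.21 over the mitochondrial members. The nuclear median turned to -0.06 without KO_PBS replicate 4, and also with library totals only. The mitochondrial median was 0.17 without KO_PBS replicate 4, 0.14 without KO_PBS replicate 3, 0.13 without KO_ASO replicate 1 and 0.11 with library totals only, where the median of all genes was -0.08. mt-Nd2 measured 14412, 12357, 12881 and 10973 CPM in KO_ASO, 0.27 above KO_PBS on the log2 scale (SE 0.14, edgeR adjusted P = 0.353). mt-Cytb was at 0.21 (SE 0.13, edgeR adjusted P = 0.447). mt-Nd6 was at 0.00 (SE 0.31), and turned negative in 6 of the alternatives tried, among them library totals only (-0.09). Among nuclear members, Ndufv2 had the smallest P value of those with a positive change, at 0.18 (SE 0.10, edgeR adjusted P = 0.393). For 74 of 92 members the 95% interval lay within 0.5 on the log2 scale.

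In WT_ASO vs WT_PBS none of the 92 members passed with edgeR, beside 0.00668% of all genes, and 3 members (3.26%) had an unadjusted P value under 0.05, as did 6.45% of all genes. These were mt-Nd1, mt-Nd2 and mt-Cytb. All 7 mitochondrial members had a negative log2FC, with a median of -0.36, against -0.01 for the nuclear members. mt-Nd2 measured 9673, 10763, 8001 and 11139 CPM in WT_ASO, below every WT_PBS sample, where 3.22% of all genes had groups that did not overlap. Its log2FC was -0.39 (SE 0.14, edgeR adjusted P = 0.736). WT_ASO replicate 3 and WT_PBS replicate 4 weighed on these values, and the median of the 7 members was -0.22 with either of them left out. The sum in WT_ASO was 86.8% of WT_PBS without WT_ASO replicate 3 and 85.6% without WT_PBS replicate 4.

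**Figure D5:**
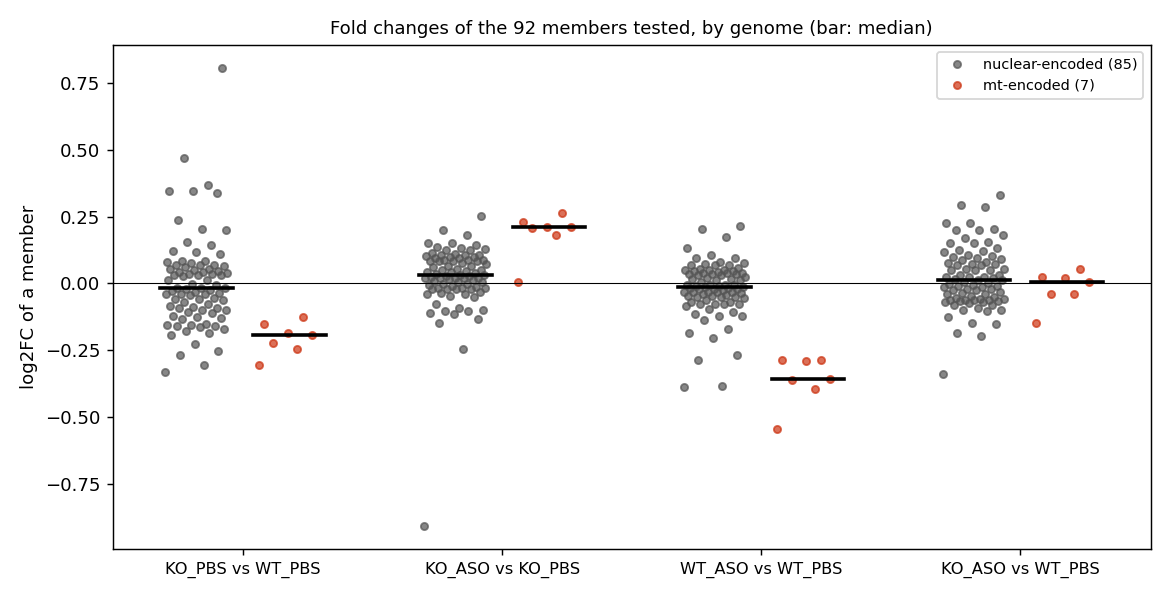
log2FC of the 92 members tested in 4 comparisons (n = 4 per group), with nuclear-encoded members in grey, mt-encoded members in red and the median of each as a bar. The mt-encoded medians are -0.19, 0.21, -0.36 and 0.01, and those of the nuclear members lie between -0.02 and 0.03. The comparisons share groups, so their patterns are not independent.

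Whether ASO1 acted differently in the genotypes was tested as an interaction, the log2FC of KO_ASO vs KO_PBS minus that of WT_ASO vs WT_PBS. None of the 92 members passed with edgeR, beside 0.575% of all genes, while 7 had an unadjusted P value under 0.05, 6 of them mitochondrial, and 1 passed with DESeq2. That member was mt-Nd2, with 0.66 (SE 0.20, edgeR adjusted P = 0.161, DESeq2 adjusted P = 0.0457). The 7 mitochondrial members ranged from 0.47 for mt-Co1 to 0.66, with a median of 0.55 against 0.05 for the nuclear members. The share of unadjusted P values under 0.05 was 85.7% of the mitochondrial members and 12.7% of all genes. The 6 messages other than mt-Nd6 are cut from a shared precursor, so the 7 values are not separate observations. The mitochondrial median was 0.42 without WT_PBS replicate 4, 0.43 without KO_ASO replicate 1, 0.45 without WT_ASO replicate 3 and 0.48 without KO_PBS replicate 4. The nuclear median turned to -0.03 without KO_PBS replicate 4 and to -0.05 without WT_PBS replicate 3. The interaction shares its samples with the comparisons given above.

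Treated knockout mice were set against both wild-type groups. In KO_ASO vs WT_PBS none of 92 members passed with edgeR, beside 0.0401% of all genes, and 1 member (Atp5k, log2FC 0.33, SE 0.15, adjusted P = 0.581) had an unadjusted P value under 0.05, as did 8.22% of all genes. The median log2FC was 0.01 over the nuclear and 0.01 over the mitochondrial members. Neither median held its sign: with each sample left out in turn, the nuclear median ran from -0.03 (without WT_PBS replicate 2) to 0.09 (without WT_PBS replicate 3) and the mitochondrial median from -0.07 (without WT_PBS replicate 3) to 0.11 (without WT_PBS replicate 4). In KO_ASO vs WT_ASO none of 92 members passed, beside 0.0735% of all genes, and 5 (5.43%) had an unadjusted P value under 0.05 by edgeR, as did 15.1% of all genes. They were Ndufb4 (-0.25) and 4 mitochondrial members at 0.31 to 0.37 (mt-Nd1, mt-Nd2, mt-Cytb and mt-Co1), and the 7 mitochondrial members were all positive, with a median of 0.34 that was 0.21 without WT_ASO replicate 3. Groups did not overlap for Ndufb4 and Atp5j, a subunit of the ATP synthase stalk, against 6.97% of all genes.

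Members of the same genome tended to vary together across samples. After the group means were taken out, the median Pearson correlation over 16 samples was 0.714 between nuclear members (3570 pairs), 0.740 within a complex (1001 pairs) and 0.700 between complexes (2569 pairs). It was 0.795 between mitochondrial members (21 pairs), and -0.076 between a nuclear and a mitochondrial member (595 pairs). These correlations describe samples that share library, depth and scaling. The ratio of the mitochondrial to the nuclear sum was 3.57 ± 0.696 in WT_PBS, 2.85 ± 0.527 in WT_ASO, 3.25 ± 0.481 in KO_PBS and 3.60 ± 0.501 in KO_ASO (SD, n = 4 each).

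The spread within groups differed widely between members. It was smallest for Sdha, with a pooled SD of 0.084 on the log2 scale, followed by Ndufs4 (0.107) and Ndufs1 (0.114). It was largest for Atp5g1 (0.759), Ndufs5 (0.602), Cox8a (0.569) and Cox5b (0.554). Of these, Atp5g1, Ndufs5 and Cox5b had 69.0, 78.3 and 77.6% of a transcript in copies, and Cox8a none. Atp5g1 measured 15.4, 2.09, 8.82 and 17.4 CPM in WT_PBS. For nuclear members, the deviations from the mean over all libraries were set against the GC content of the transcripts. They rose with it in some libraries and fell in others. The Spearman correlation over 85 members ran from -0.277 in KO_ASO replicate 1 to 0.476 in WT_ASO replicate 3, and was 0.391 in WT_PBS replicate 3. The part of this in the members' results was not tested.

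Genes that serve the same complexes were read from lists of other mitochondrial functions. In KO_PBS vs WT_PBS, of 45 assembly factors 1 was higher and 4 lower, of 28 genes of mitochondrial DNA maintenance and expression 0 and 2, of 18 regulators of mitochondrial biogenesis 1 and 1, of 14 tricarboxylic acid cycle enzymes 0 and 2, and of 20 membrane, carrier and chaperone genes 1 and 1, beside 7.43% higher and 5.12% lower of all genes. The lower assembly factors were Tmem126b, for complex I (log2FC -0.37, SE 0.07), Coa7, for complex IV (-0.48, SE 0.10), and Uqcc1 (-0.29, SE 0.08) and Ttc19 (-0.33, SE 0.11), both for complex III. Cox19, a copper-handling factor of complex IV, was higher (0.31, SE 0.09). Their adjusted P values by edgeR ran from 0.00269 to 0.0483. Fastkd3 (-0.35, SE 0.07), an RNA-binding factor of mitochondrial messages, and Mgme1 (-0.43, SE 0.10), an exonuclease of mitochondrial DNA, were lower, as were Idh3a (-0.27, SE 0.07) and Suclg1 (-0.26, SE 0.08) of the tricarboxylic acid cycle, with adjusted P values by edgeR from 0.00577 to 0.0317.

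Among regulators, Prkaa1, a catalytic subunit of the energy sensor AMPK, rose from 16.9 ± 1.74 CPM in WT_PBS to 32.2 ± 3.67 CPM in KO_PBS (SD, n = 4 each, log2FC 0.93, SE 0.10, edgeR adjusted P = 2.57e-05). In KO_ASO it fell to 19.4 ± 0.692 CPM (SD, n = 4), a log2FC of -0.73 against KO_PBS (SE 0.10, edgeR adjusted P = 0.000965). Perm1, a muscle regulator of oxidative genes, was lower in KO_PBS (log2FC -0.38, SE 0.12, edgeR adjusted P = 0.0445). Vdac3, a channel of the outer mitochondrial membrane, measured 120.8 ± 2.99 CPM in WT_PBS, 93.4 ± 6.86 CPM in KO_PBS and 118.3 ± 6.5 CPM in KO_ASO (SD, n = 4 each). It passed in both comparisons, with log2FC of -0.37 and 0.34 (SE 0.08 each, edgeR adjusted P = 0.00425 and 0.0197).

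Tspo, an outer membrane protein also abundant in macrophages, rose from 15.7 ± 2.66 to 46.2 ± 2.5 CPM in KO_PBS and was at 19.4 ± 3.74 CPM in KO_ASO (SD, n = 4 each), with log2FC of 1.56 and -1.25 (SE 0.18 each, edgeR adjusted P = 4.95e-05 and 0.00118). Macrophage markers moved the same way, as given above, and their part in the level of Tspo was not tested. In KO_ASO vs KO_PBS only Prkaa1, Tspo and Vdac3 passed among these 5 lists, beside 3.64% of all genes, and in WT_ASO vs WT_PBS, KO_ASO vs WT_PBS and the interaction none passed by edgeR.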

How the data were processed

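The authors deposited raw read counts per gene, not normalized, with 1 column per sample. GRCm38, HTSeq 0.6.1p1, STAR 2.5.3a, Bowtie2 2.2.8 and cutadapt 1.10 are listed in the submitters' processing notes. The strand setting and the treatment of reads with several matches were not given in the sources used here, so members with near-identical copies or overlapping genes are uncertain. Of the named members, Cox4i1, Atp5a1, Atp5d, Atp5j, Uqcrb, Ndufs1, Ndufs3, Ndufa4l2, mt-Nd5 and mt-Nd6 overlap exons of a gene on the other strand. Symbols and lengths came from GENCODE M21, which matched all 29730 identifiers, and promoters from RefSeq. Copies were found with BLAST 2.17.0.

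Counts were tested with edgeR 4.0.16 under R 4.3.3. Filtering by filterByExpr left 14960 genes and removed 14770. After TMM scaling, the quasi-likelihood test (robust) used all 16 samples with a mean for each group, and P values were adjusted over all genes (Benjamini-Hochberg, 0.05). Each sample was taken as a separate mouse. The common biological coefficient of variation was 18.7%. CPM are on TMM-scaled library sizes. DESeq2 1.42.0, limma-voom (limma 3.58.1) with sample weights, other scalings, no filter, the compared groups only, a replicate block, another gene length and omission of each sample were tried. With TMM the median log2FC of all genes in KO_PBS vs WT_PBS was -0.01, and with library totals only it was 0.14, and all changes are stated on the TMM scale. The code was tested on simulated data.

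Members and lists were chosen with earlier results of these data known. Named members were those called in any comparison, the smallest P values on each side by complex and genome in KO_PBS vs WT_PBS and KO_ASO vs KO_PBS, the mitochondrial genes, the succinate dehydrogenase subunits and the tissue isoforms. From the other lists, up to 4 called genes with the smallest P values were named. Ndufs1, Ndufs4, Ndufs5, Ndufs3, Atp5h, Atp5b, Atp5j, Cox5b, Cox7c, Ttc19, Tnni1, Atp2a2, Pdgfra, Dcn, Bin1 and Dnm2 were named beyond this rule, after their values were seen.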

Additional observations from a re-analysis of the deposited data

Results flagged for a closer look

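In each group of 4, the highest or lowest sample was marked where its gap to the nearest other sample was a larger share of the group's range than Dixon's 95% critical value. This marked 14 of 212 groups of values screened, and chance marks about 1 group in 20. Of the 14, 9 are the low side of KO_PBS replicate 4. In that library Cox4i1 measured 695.4 CPM against 918.5 to 939.0 CPM in the other KO_PBS samples, Cox6b1 388.6 CPM against 499.2 to 516.6 CPM, and Cox7a1 264.8 CPM against 398.4 to 409.4 CPM. Cox7a2 measured 141.6 CPM against 188.5 to 192.4 CPM, Cox8b 183.9 CPM against 235.3 to 245.2 CPM, and Sdhb 378.4 CPM against 545.6 to 578.3 CPM. The nuclear sums there were 6472 CPM for complex I, 1974 CPM for complex II and 2947 CPM for complex IV.

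In WT_PBS replicate 3, Atp5d, the delta subunit of the ATP synthase, measured 431.6 CPM against 292.0 to 295.6 CPM in the other WT_PBS samples, Cox6a1 17.6 CPM against 7.22 to 8.02 CPM, and Ndufb4 19.7 CPM against 19.0 to 19.1 CPM. Uqcrb measured 117.3 CPM in WT_ASO replicate 4 against 90.5 to 93.7 CPM. Atp5g1 measured 13.97 CPM in KO_ASO replicate 4 against 7.68 to 8.44 CPM.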

How the results depend on the processing

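The 2 members called in KO_PBS vs WT_PBS became 0 with the compared groups only, with library totals only, without a filter and with the scaling computed without the members, and 1 with the replicate block (Ndufb4). Leaving out each sample gave 0 to 2, and limma-voom called Sdha, Atp5k and Cox6b2. Limma-voom called 1 member (Cox6b2) in KO_ASO vs KO_PBS, and DESeq2 called 1 (mt-Nd2) in the interaction. The causes were not tested. With the mean transcript length in place of merged exons, the per-length ratio in WT_PBS was 460.3 for Cox4i1 over Cox4i2, 2.40 for Cox7a1 over Cox7a2 and 53.5 for Ndufa4 over Ndufa4l2. The labels do not say that replicate numbers mark a pairing, so the main fit did not treat them as pairs. If they do mark one, the main fit leaves it out. Over 24 same-numbered pairs the correlation of deviations ran from -0.0777 to 0.435 and exceeded 0.1 in 11, against 8 of 72 differently numbered pairs, and 13 of 16 samples correlated best with their own number, a hint from the data of a shared factor that the design does not name. With the replicate block the calls over all genes rose from 1878 to 2322 in KO_PBS vs WT_PBS and from 544 to 752 in KO_ASO vs KO_PBS. Depth limits the tested members with the fewest counts, Atp5g2 (211 counts over all libraries), Cox6b2 (223), Cox7c (1125) and Cox4i2 (1412).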
